A study of Homo sapiens with 4 samples.

Results

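The histone locus body and histone mRNA processing genes are 8 protein-coding genes whose products act on replication-dependent histone genes and their transcripts: NPAT, CASP8AP2, LSM10, LSM11, ZNF473, SLBP, ERI1 and MIF4GD. They were chosen by that role and not by a measured value, though with earlier results of these data known. They are the rows of the count table whose gene identifier carries 1 of these symbols in the GENCODE annotation. Of 60708 gene rows, 8 were members, and all 8 were among the 23321 genes with enough counts to be tested. Their newly made RNA was measured by TT-seq, in which RNA is labeled with 4-thiouridine (4-SU) for a short time, here 20 min, and the labeled fragments are purified and sequenced. The line was HEK293, derived from human embryonic kidney, with a degron on RPB1, the largest subunit of RNA polymerase II (Pol II), so that auxin triggers loss of the endogenous protein. All 4 libraries came from such cells that had been transfected with a plasmid for RPB1 and, 48 h later, treated with auxin for 48 h. In the WT group (2 libraries) the plasmid carried the wild-type C-terminal domain (CTD) of 52 repeats. In the T4A group (2 libraries) the threonine at the fourth position of each of the 52 repeats was alanine. The transfection was transient, and the labels give neither the share of cells that took up a plasmid nor whether the degron line is 1 clone. The labels do not state that the libraries of a group came from separate cultures, so p-values measure only the spread between these libraries, which may be technical. In bulk RNA, fewer cells of a type, such as cells in S phase, and less RNA per cell cannot be told apart.

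Replication-dependent histone mRNAs are the mRNAs of metazoans that end in a conserved stem-loop and not in a poly(A) tail. NPAT, a substrate of cyclin E and CDK2, gathers with CASP8AP2 (also called FLASH) at the histone gene clusters in a nuclear body, the histone locus body, where the genes are transcribed in S phase. SLBP binds the stem-loop, the U7 snRNP (a small RNA with a ring that holds LSM10 and LSM11) pairs with a purine-rich element downstream of it, and ZNF473 (ZFP100) and CASP8AP2 help to join them to a cleavage complex that is shared with poly(A) mRNAs. After export MIF4GD (SLIP1) links SLBP to translation, and ERI1, a 3′ to 5′ exonuclease, binds the stem-loop and takes part in decay of the mRNA.

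The sequences that these proteins act on are given first, since they define the pathway. In the GENCODE v44 transcripts, 62 of 63 replication-dependent histone genes held the stem-loop pattern, searched as GG, any 2 bases, CTT, any base, T, any base, AG, any 2 bases and CC. A match anywhere in an annotated transcript was accepted. The stem-loop of the gene with the highest mean count in each histone class is printed below 5′ to 3′, as DNA. Paired bases of the stem are in capitals, with up to 5 flanking bases on either side. That of H2AC6 starts at base 525 of a 1668-base annotated transcript, which thus runs on past the stem-loop.
H1-2: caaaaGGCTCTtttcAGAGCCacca
H2AC6: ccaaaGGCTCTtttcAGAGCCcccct
H2BC11: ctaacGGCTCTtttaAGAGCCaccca
H3C2: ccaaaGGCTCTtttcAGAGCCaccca
H4C8: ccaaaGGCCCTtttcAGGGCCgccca
The U7 snRNA, the RNA partner of LSM10 and LSM11, is shown with the Sm site that their ring assembles on, bases 21 to 31 of 63, in capitals.
RNU7-1: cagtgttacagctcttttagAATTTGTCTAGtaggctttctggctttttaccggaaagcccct
The gene RNU7-1 (GRCh38 chr12:6943816-6943878, plus strand) was listed at 0 counts in all 4 libraries, which allows up to 3 counts per library or between 0.0680 and 0.0892 CPM (counts scaled to the size of the library). This limit covers counting error only, and the level of U7 RNA was therefore not measured here.

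The counts summed to between 33188536 and 45605027 per library and included introns. Between libraries of a group, log2 CPM (counts scaled to library size with TMM factors) had a correlation of 0.991 in WT and 0.979 in T4A over the tested genes. T4A replicate 1 stood apart, with correlations of 0.975 and 0.974 with the WT libraries against 0.989 and 0.988 for T4A replicate 2. POLR2A, the gene of RPB1, to which reads from the transfected plasmids may also be assigned, had 9640 and 8720 CPM in WT and 7492 and 8083 CPM in T4A (log2 fold change −0.24, SE 0.25, edgeR quasi-likelihood test, Benjamini-Hochberg adjusted p = 0.659). This count checks neither the loss of the endogenous protein nor the mutation. Of 5 HEK293 markers, LIN28B was between 174 and 210 CPM, NEFL between 56.2 and 76.6 CPM, LHX1 between 3.16 and 3.64 CPM and PAX2 between 1.82 and 2.78 CPM, while NEFM had at most 6 counts. Of 5 markers of other cell types found in the table, PTPRC, CD3E, ALB, COL1A1 and GFAP, none was above 2.95 CPM. CPM are relative to each library, so a change shared by all genes would not be seen.

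None of the 8 genes passed the test between T4A and WT, which required an adjusted p below 0.05 and a fold change above 1.5. With edgeR's quasi-likelihood test and Benjamini-Hochberg adjustment over 23321 genes, 0 of 8 were called, and the lowest adjusted p was 0.287, for CASP8AP2. Across all tested genes 1 gene was called, or 0.00429%, namely CHST8. DESeq2 also called 0 of the 8 genes, with no adjusted p for LSM10 and MIF4GD. At an unadjusted p below 0.05, 1 member was lower in T4A, where 8.02% of all tested genes were, and 0 were higher, where 7.45% of all tested genes were. Log2 fold changes were below 0 for 5 of the 8, where 50.1% of all tested genes were. The median of the 8 was −0.10, beside −0.00076 for all tested genes and −0.043 for tested protein-coding genes. SLBP and LSM11 were higher in both T4A libraries than in both WT libraries, an arrangement found in 24.8% of tested genes. CASP8AP2, LSM10 and ZNF473 were lower in both T4A libraries than in both WT libraries, as were 24.7% of tested genes. Summed over the 8 genes, labeled RNA came to 541.1 and 551.5 CPM in WT and 555.9 and 517.1 CPM in T4A, so the groups overlapped.

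**Figure D1:**
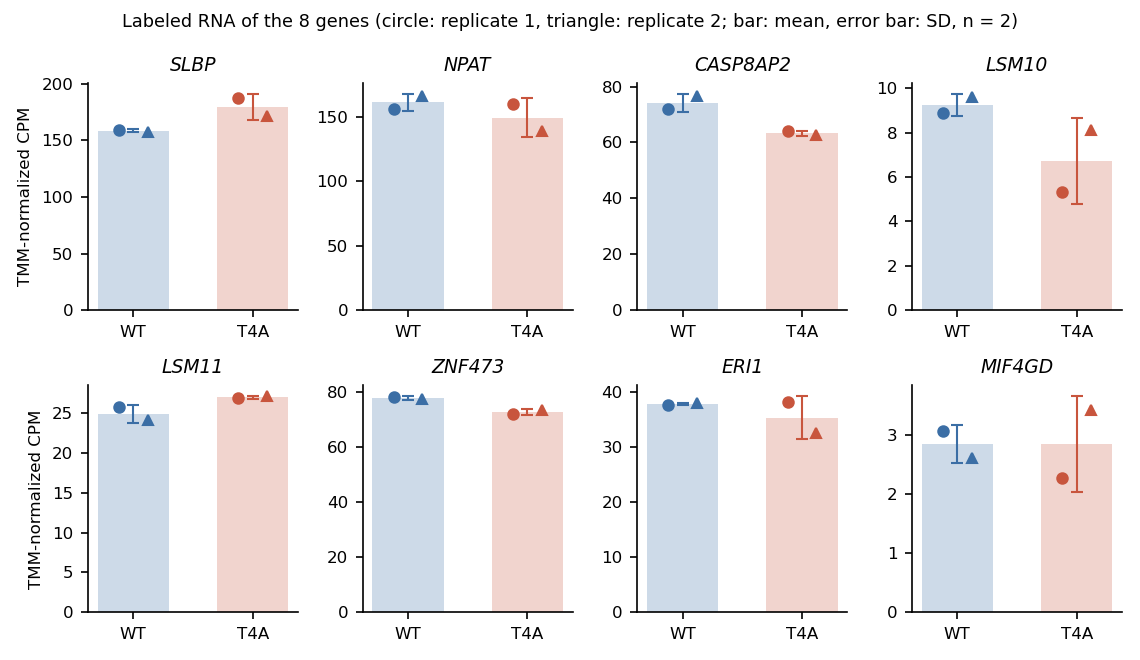
TMM-normalized CPM of the 8 genes, 1 panel per gene with its own axis from 0, in WT (blue) and T4A (red); circles are replicate 1, triangles replicate 2, bars the mean and error bars the SD (n = 2). The widest gap between replicates relative to the mean is that of LSM10 and MIF4GD in T4A, and CASP8AP2 has both T4A libraries (64.0 and 62.6 CPM) below both WT libraries (72.0 and 76.5 CPM).

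NPAT and CASP8AP2, the scaffold proteins of the histone locus body, come first. NPAT (ENSG00000149308.17, GRCh38 chr11:108157215-108222638, minus strand) had 6115 and 7305 counts in WT and 5364 and 4790 counts in T4A. This gave 156.2 and 165.7 CPM in WT (161.0 ± 6.71, SD, n = 2) and 159.8 and 138.5 CPM in T4A (149.2 ± 15.0). The groups overlapped, since T4A replicate 1 lay between the WT libraries, and only T4A replicate 2 was below them. The log2 fold change of NPAT was −0.11 (SE 0.10, edgeR quasi-likelihood test, adjusted p = 0.610). CASP8AP2 (ENSG00000118412.13, chr6:89829894-89874436, plus strand), whose protein binds LSM11, had 2816 and 3371 counts in WT and 2148 and 2164 counts in T4A. Its levels were 71.95 and 76.48 CPM in WT (74.2 ± 3.20) and 63.99 and 62.59 CPM in T4A (63.3 ± 0.991). Both T4A libraries were below both WT libraries, and the T4A libraries were close to each other. CASP8AP2 had a log2 fold change of −0.23 (SE 0.09), with an unadjusted p of 0.0304 and an adjusted p of 0.287 in edgeR's quasi-likelihood test. Of all tested genes, 21.5% had a lower log2 fold change than CASP8AP2.

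LSM10 and LSM11, the Sm-like proteins that are found in the ring of U7 snRNP and not in that of spliceosomal snRNPs, had differences of opposite sign. LSM10 (ENSG00000181817.6, chr1:36391238-36397908, minus strand) had 348 and 423 counts in WT and 179 and 280 counts in T4A. Its levels were 8.89 and 9.60 CPM in WT (9.24 ± 0.499) and 5.33 and 8.10 CPM in T4A (6.715 ± 1.956). Both T4A libraries were below both WT libraries, but T4A replicate 1 was farther from T4A replicate 2 than the latter was from WT. The log2 fold change of LSM10, −0.46 (SE 0.22, edgeR quasi-likelihood test, adjusted p = 0.351), was the lowest of the 8, and 7.32% of all tested genes had a lower one. Taken by library, T4A replicate 1 was at −0.79 from the WT mean and T4A replicate 2 at −0.19. Without T4A replicate 2 the log2 fold change of LSM10 was −0.81, and without T4A replicate 1 it was −0.18. Either fit leaves a lone T4A library, assumed to vary like the WT libraries, so only the effect sizes are given here. LSM11 (ENSG00000155858.6, chr5:157743712-157760709, plus strand) had 1005 and 1061 counts in WT and 900 and 935 counts in T4A. Its levels were 25.68 and 24.07 CPM in WT (24.9 ± 1.14) and 26.81 and 27.04 CPM in T4A (26.9 ± 0.164). Both T4A libraries were above both WT libraries, by less than the gap between the WT libraries in the case of the nearest pair. The log2 fold change of LSM11 was 0.11 (SE 0.11, edgeR quasi-likelihood test, adjusted p = 0.641).

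ZNF473 (ENSG00000142528.16, chr19:50025714-50053414, plus strand), the zinc finger protein that binds LSM11 and the complex of SLBP with the stem-loop, had 3065 and 3410 counts in WT and 2414 and 2542 counts in T4A. Its levels were 78.31 and 77.36 CPM in WT (77.8 ± 0.671) and 71.91 and 73.52 CPM in T4A (72.7 ± 1.14). Both T4A libraries were below both WT libraries, and replicates of either group were closer to each other than to the other group. The difference was small, with a log2 fold change of −0.10 (SE 0.08, edgeR quasi-likelihood test, adjusted p = 0.593). Of its span 2826 bases are shared with another gene on the same strand, so reads there could not be assigned to ZNF473 alone.

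SLBP, ERI1 and MIF4GD, the genes of the proteins that bind the stem-loop or SLBP, follow. SLBP (ENSG00000163950.13, chr4:1692731-1712344, minus strand) had 6234 and 6952 counts in WT and 6302 and 5925 counts in T4A. Its levels were 159.3 and 157.7 CPM in WT (158.5 ± 1.10) and 187.7 and 171.4 CPM in T4A (179.6 ± 11.6). Both T4A libraries were above both WT libraries, which were nearly equal. The log2 fold change of SLBP, 0.18 (SE 0.09, edgeR quasi-likelihood test, adjusted p = 0.375), was the highest of the 8, and 69.4% of all tested genes had a lower one. ERI1 (ENSG00000104626.15, chr8:9002147-9116746, plus strand) had 1475 and 1674 counts in WT and 1278 and 1124 counts in T4A. Its levels were 37.69 and 37.98 CPM in WT (37.8 ± 0.206) and 38.07 and 32.51 CPM in T4A (35.3 ± 3.93). T4A replicate 1 was at the WT level and T4A replicate 2 below it. The log2 fold change of ERI1 was −0.10 (SE 0.11, edgeR quasi-likelihood test, adjusted p = 0.685). MIF4GD (ENSG00000125457.15, chr17:75266228-75271231, minus strand) was the least measured of the 8, with 120 and 115 counts in WT and 76 and 118 counts in T4A. Its levels were 3.07 and 2.61 CPM in WT (2.84 ± 0.323) and 2.26 and 3.41 CPM in T4A (2.84 ± 0.812). The T4A libraries lay on opposite sides of the WT libraries, and the log2 fold change was 0.0024 (SE 0.28, edgeR quasi-likelihood test, adjusted p = 0.998), so a difference of the size of this SE could not be told from 0.

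**Figure D2:**
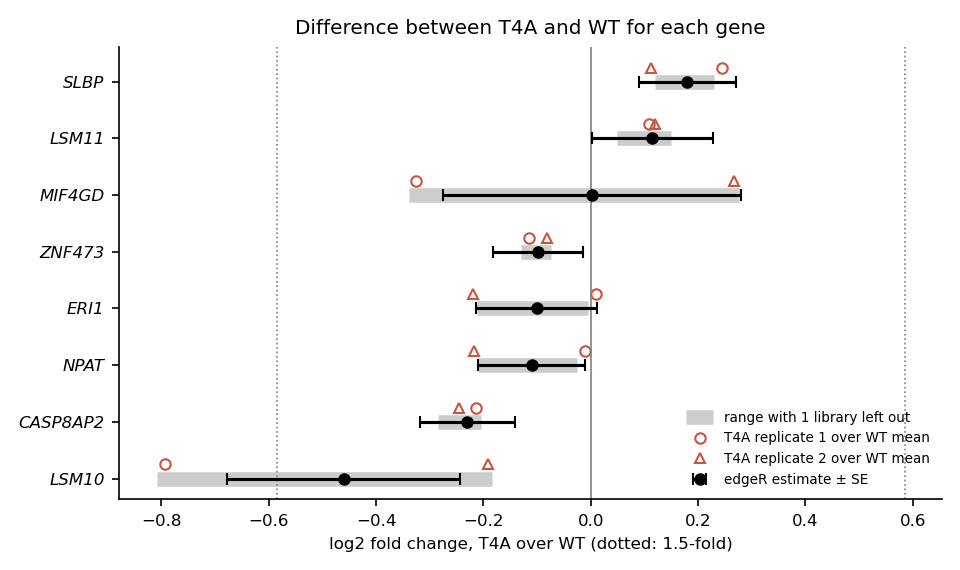
Log2 fold change of T4A over WT for the 8 genes, in order of size; black points with bars are the edgeR estimate ± SE, open red symbols each T4A library over the WT mean, grey bars the range with 1 library left out, and dotted lines a 1.5-fold change. LSM10 spans from −0.81 to −0.18 and MIF4GD from −0.34 to 0.28 with 1 library left out, while SLBP and LSM11 stay above 0 and NPAT, CASP8AP2, ZNF473 and ERI1 below it.

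Levels of the 8 genes differed widely when divided by gene length. Levels were taken as CPM per kb of gene span, averaged over the 4 libraries (± SD, n = 4), so this SD holds both groups. SLBP stood highest with 8.62 ± 0.708, above 97.3% of the tested protein-coding genes. The other 7 genes lay far below SLBP. ZNF473 had 2.72 ± 0.110 CPM per kb, NPAT 2.37 ± 0.179, CASP8AP2 1.54 ± 0.148, LSM11 1.52 ± 0.0799, LSM10 1.20 ± 0.280, MIF4GD 0.567 ± 0.101 and ERI1 0.319 ± 0.0236. ERI1, spread over 114600 bases, was above only 37.6% of tested protein-coding genes per kb of span. Neighbours in this order did not overlap over the 4 libraries, except CASP8AP2 with LSM11 and LSM11 with LSM10. LSM10 and LSM11 overlapped in WT only, with 1.33 and 1.44 CPM per kb for LSM10 and 1.51 and 1.42 for LSM11. In T4A LSM10 was lower, with 0.799 and 1.21 CPM per kb against 1.58 and 1.59 for LSM11. Since 4-SU labeled RNA holds introns, the span was used as length. Per kb of exons, SLBP remained highest with 89.7 CPM per kb and MIF4GD became the lowest with 0.772 CPM per kb.

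Of the 8 genes, 4 start within 1000 bases of a gene on the opposite strand, a position that the choice of members did not use. NPAT faces ATM, the DNA damage kinase, with 406 bases between the starts. SLBP faces TACC3, a spindle protein, with 514 bases between the starts. MIF4GD faces the lncRNA gene MIF4GD-DT, at 138 bases. The spans of ZNF473 and of VRK3, a gene of the vaccinia-related kinase family, overlap at their 5′ ends, with starts 232 bases apart. The other 4 genes have no such neighbour by the coordinates of the table.

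RefSeq promoters (GRCh38.p14) were found for 6 of the 8 genes. MIF4GD, which diverges from a lncRNA gene, is among these 6 but not shown. The promoters of SLBP and NPAT, the members that diverge from a protein-coding gene, are shown. Each is 300 bases long, 5′ to 3′ on the strand of the gene and across its RefSeq start, with matches to the searched motifs in capitals. The motifs, searched on both strands, were CCAAT, the GC box GGGCGG, TTTNNCGC (an E2F-like site) and TATAAA, which 34.6%, 45% (GC box), 6.89% and 11.5% of 35116 RefSeq promoters of the same length held.
SLBP, chr4:1712270-1712569, minus strand: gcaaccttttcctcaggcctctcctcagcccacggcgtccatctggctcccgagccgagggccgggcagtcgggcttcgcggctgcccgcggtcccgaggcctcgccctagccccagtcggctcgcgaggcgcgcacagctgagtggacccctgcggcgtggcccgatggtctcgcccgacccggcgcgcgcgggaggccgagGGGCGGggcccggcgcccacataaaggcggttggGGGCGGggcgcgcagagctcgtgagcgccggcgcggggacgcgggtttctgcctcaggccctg
NPAT, chr11:108222589-108222888, minus strand: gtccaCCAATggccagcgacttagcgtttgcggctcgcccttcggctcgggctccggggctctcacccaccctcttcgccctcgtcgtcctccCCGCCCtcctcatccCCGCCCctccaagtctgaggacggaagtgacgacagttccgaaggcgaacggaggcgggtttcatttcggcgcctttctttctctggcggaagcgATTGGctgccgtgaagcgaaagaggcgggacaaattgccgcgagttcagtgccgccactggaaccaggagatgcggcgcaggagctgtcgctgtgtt
The SLBP window held a GC box at 47 and at 13 bases before the start and none of the other motifs. The NPAT window held CCAAT at 245 and, on the opposite strand, at 47 bases before the start, and GC boxes on the opposite strand at 157 and 142 bases before it. Among the other promoters, CASP8AP2 was the member with an E2F-like match (149 bases before the start), and TATAAA was found in none. A match is a description of the letters and not evidence of a bound factor.

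Genes of a pair were set side by side by library. NPAT and ATM kept a similar ratio of counts, 1.15 and 1.09 in WT and 1.16 and 1.04 in T4A. Such closeness is not particular to a pair. By the distance over the 4 libraries described below, 1148 of 12940 tested protein-coding genes lay within 0.1 of NPAT. ATM had 136.4 and 152.3 CPM in WT and 137.7 and 133.9 CPM in T4A, with a log2 fold change of −0.089 (SE 0.093, edgeR quasi-likelihood test, adjusted p = 0.663). Like those of NPAT, its groups overlapped. For SLBP and TACC3 the ratio of counts was 1.79 and 2.04 in WT and 3.24 and 1.99 in T4A, so T4A replicate 1 was high and T4A replicate 2 lay between the WT libraries. TACC3 itself had 89.07 and 77.34 CPM in WT and 58.00 and 86.33 CPM in T4A (log2 fold change −0.20, SE 0.17, edgeR quasi-likelihood test, adjusted p = 0.577). The difference within this pair was thus that of 1 library, and without T4A replicate 1 the log2 fold change of TACC3 was 0.062. MIF4GD-DT had 119 and 165 counts in WT and 67 and 105 counts in T4A (log2 fold change −0.43, SE 0.28, edgeR quasi-likelihood test, adjusted p = 0.474). Its ratio to MIF4GD was 1.01 and 0.697 in WT and 1.13 and 1.12 in T4A, as MIF4GD over MIF4GD-DT. Without T4A replicate 2 the log2 fold change of MIF4GD-DT was −0.78, and without T4A replicate 1 it was −0.16. VRK3 had 56.82 and 52.93 CPM in WT and 50.46 and 51.16 CPM in T4A, with a log2 fold change of −0.11 (SE 0.09, edgeR quasi-likelihood test, adjusted p = 0.585) beside −0.10 for ZNF473. The ratio of ZNF473 to VRK3 counts stayed between 1.38 and 1.46 in the 4 libraries.

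**Figure D3:**
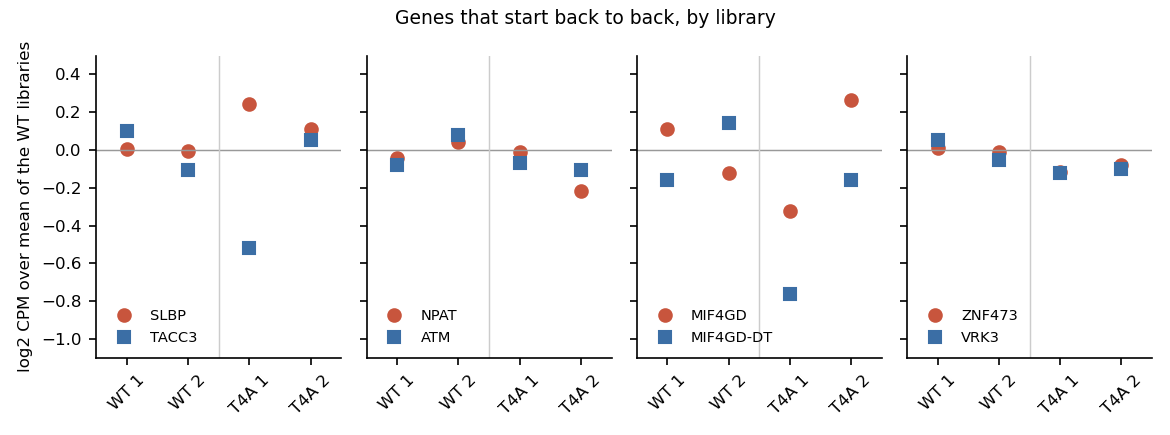
Log2 CPM over the mean of the WT libraries, by library, for each gene (red circles) and the gene that starts back to back with it (blue squares). NPAT with ATM and ZNF473 with VRK3 lie close in every library, while SLBP and TACC3 part in T4A replicate 1, where TACC3 has 58.00 CPM. Genes that are not paired with a member are not shown for comparison.

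LSM10 and MIF4GD, the members with the widest gap between the T4A libraries, were also those with the highest G+C content in their annotated transcripts, 59.4% and 57.0%. The other 6 ranged from 38.4% (CASP8AP2) to 49.7% (ZNF473). In log2 CPM, T4A replicate 1 was below T4A replicate 2 by −0.60 for LSM10 and −0.58 for MIF4GD (replicate 1 minus replicate 2). A gap of more than 1.5-fold in this direction was found in 11.5% of tested genes. Across 15329 tested protein-coding genes, this difference between the T4A libraries correlated with G+C content at a Pearson r of −0.47 and a Spearman rho of −0.46, as a description over genes of the same 2 libraries. Its median was 0.097 in the decile of genes with the lowest G+C content and −0.69 in that with the highest. The difference between the WT libraries ran the other way (r = 0.30, rho = 0.46). The log2 fold change of T4A over WT correlated with G+C content at r = −0.15 and rho = −0.14. TACC3, at 58.3% G+C, had a difference of −0.57 between the T4A libraries. The part of G+C content in the values of LSM10, MIF4GD and TACC3 was not tested. The promoter of LSM10 is given because this gene had the largest difference of the 8.
LSM10, chr1:36397859-36398158, minus strand: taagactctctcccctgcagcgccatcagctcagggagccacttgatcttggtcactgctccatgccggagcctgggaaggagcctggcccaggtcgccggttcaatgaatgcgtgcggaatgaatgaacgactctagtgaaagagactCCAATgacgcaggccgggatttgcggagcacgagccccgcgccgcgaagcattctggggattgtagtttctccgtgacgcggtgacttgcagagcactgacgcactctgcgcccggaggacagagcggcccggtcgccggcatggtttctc
It held 1 CCAAT, 101 bases before the start, and none of the other motifs. Its own G+C content was 61.3%, beside 76.7% for the SLBP window and 64% for the NPAT window.

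**Figure D4:**
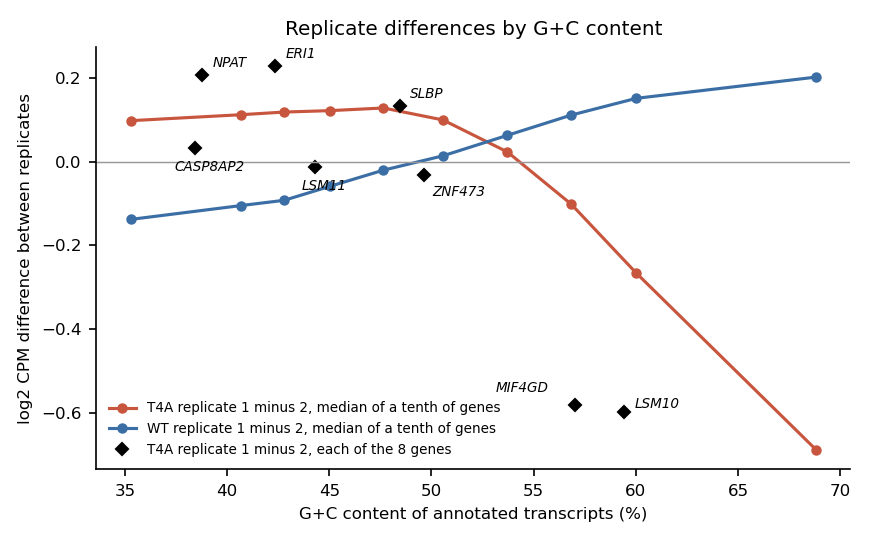
Difference in log2 CPM between replicates against the G+C content of annotated transcripts; lines join the medians of deciles of 15329 protein-coding genes for T4A (red) and WT (blue), and black diamonds are the T4A difference of each of the 8 genes. LSM10 (−0.60) and MIF4GD (−0.58) lie at the high G+C end, below the T4A median of genes of like content.

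The genes that work with the 8 members were read from the same test, in lists that follow the steps of histone mRNA synthesis. These lists were also chosen with earlier results of these data known. Over 6 lists (53 genes, 50 tested), edgeR called 0 genes in either direction. At an unadjusted p below 0.05, 5 (10.0%) were higher and 5 (10.0%) lower in T4A, near the 7.45% and 8.02% of all tested genes. Both T4A libraries were above both WT libraries for 12 genes (24%) and below them for 16 (32%), beside 24.8% and 24.7% of all tested genes. The median log2 fold change was −0.049. The cleavage factor that histone and poly(A) mRNAs share had 6 tested genes of 7, all with a log2 fold change below 0 (median −0.25). In 4 of the 6, both T4A libraries were below both WT libraries (24.7% of all tested genes), and 1 was lower at an unadjusted p below 0.05 (8.02% of all tested genes). Without T4A replicate 1 the median was −0.095, but over 7 genes, since FIP1L1 (at most 14 counts in a library) then passed the filter. CSTF2, a subunit that binds downstream of poly(A) sites, had the smallest difference (−0.047, SE 0.10). CPSF1, the largest subunit of CPSF, had the lowest value (−0.33, SE 0.29), with 16.5 and 14.7 CPM in WT and 8.01 and 16.8 CPM in T4A. T4A replicate 1 was low, and T4A replicate 2 lay above both WT libraries. Without T4A replicate 1 the value was 0.12, and without T4A replicate 2 it was −0.97. The Sm proteins that share the U7 ring with LSM10 and LSM11 had values of the opposite sign, with all 4 tested genes of 5 higher in both T4A libraries than in both WT libraries (median 0.19), as were 24.8% of all tested genes. At an unadjusted p below 0.05, 2 of the 4 were higher, where 7.45% of all tested genes were. SNRPF had 90.4 and 94.4 CPM in WT and 113.1 and 111.1 CPM in T4A, a log2 fold change of 0.28 (SE 0.08, edgeR quasi-likelihood test, adjusted p = 0.237). SNRPE had the smallest value of this list, 0.14 (SE 0.09, edgeR quasi-likelihood test, adjusted p = 0.463). SNRPD3, the gene of this list that was not tested, had at most 1 count in a library.

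Of the genes that assemble the U7 ring, 10 of 11 were tested, and 4 had a log2 fold change above 0 and 6 below (median −0.022). GEMIN2, which holds the Sm proteins in the SMN complex, had 20.1 and 21.9 CPM in WT and 15.97 and 13.02 CPM in T4A (log2 fold change −0.54, SE 0.15, edgeR quasi-likelihood test, adjusted p = 0.218). Without T4A replicate 1 it was −0.68, and without T4A replicate 2 it was −0.41. DDX20, a helicase of the same complex, had a log2 fold change of 0.21 (SE 0.09, edgeR quasi-likelihood test, adjusted p = 0.302). Of the 7 cap-binding and pausing genes, 3 were above 0 and 4 below, between NCBP2 at 0.17 (SE 0.11) and NELFA, a subunit of the pausing factor NELF, at −0.35 (SE 0.13). Of the 9 genes of histone gene activation, 2 (22.2%) were higher at an unadjusted p below 0.05 and 0 lower, beside 7.45% and 8.02% of all tested genes. CCNE2, a cyclin E that with CDK2 phosphorylates NPAT, had 55.5 and 55.2 CPM in WT and 70.3 and 71.4 CPM in T4A, so the groups were well apart (log2 fold change 0.36, SE 0.09, edgeR quasi-likelihood test, adjusted p = 0.201). GON4L had the lowest value of this list, −0.16 (SE 0.09). Of 14 genes of SLBP turnover and histone mRNA translation and decay, 10 were below 0 and 4 above (median −0.088). CCNF, the F-box protein that targets SLBP for degradation in G2, had 51.2 and 43.0 CPM in WT and 30.2 and 39.7 CPM in T4A (log2 fold change −0.43, SE 0.15, edgeR quasi-likelihood test, adjusted p = 0.256). Without T4A replicate 2 it was −0.65, and without T4A replicate 1 it was −0.24. CDK1, which with cyclin A starts SLBP turnover, had a log2 fold change of 0.16 (SE 0.10, edgeR quasi-likelihood test, adjusted p = 0.465).

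The S-phase genes, which rise in the part of the cell cycle in which the histone locus body is active, had 25 of 26 members tested, 13 above and 12 below 0 (median 0.030). At an unadjusted p below 0.05, 5 (20.0%) were higher and 2 (8.0%) lower in T4A, beside 7.45% and 8.02% of all tested genes. RRM2, a subunit of ribonucleotide reductase, had the highest value, 0.30 (SE 0.10, edgeR quasi-likelihood test, adjusted p = 0.247). CDT1, a factor of replication licensing, had the lowest, −0.82 (SE 0.50, edgeR quasi-likelihood test, adjusted p = 0.449), with 21.4 and 23.5 CPM in WT, 4.74 CPM in T4A replicate 1 and 20.6 CPM in T4A replicate 2. Without T4A replicate 2 it was −2.26, and without T4A replicate 1 it was −0.12. Whether cells of the groups differed in cell cycle stage was not measured.

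**Figure D5:**
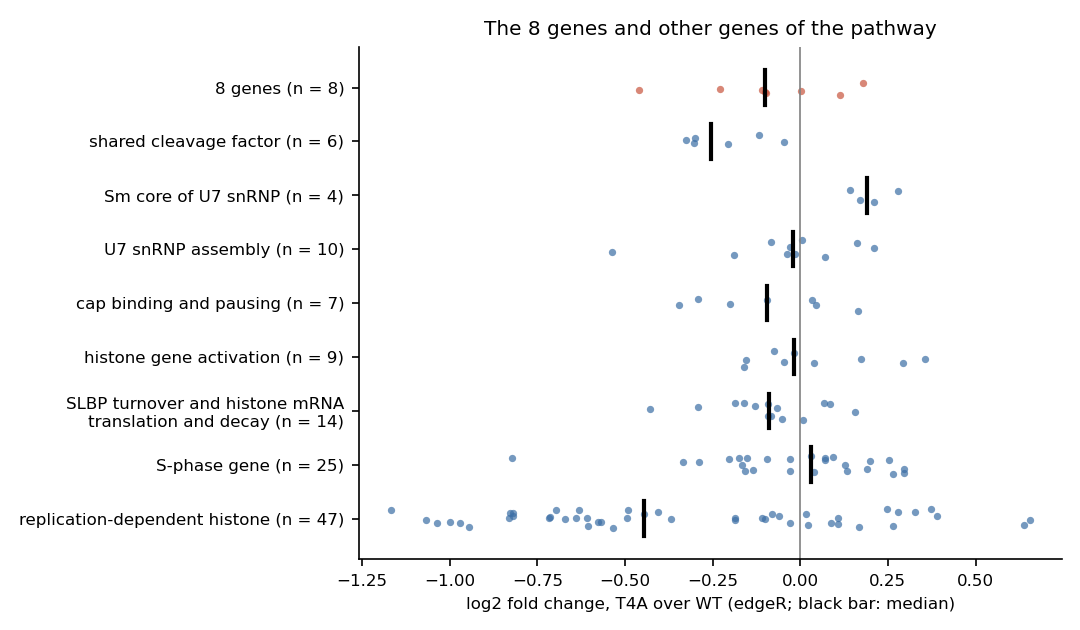
Log2 fold change of T4A over WT (edgeR) for each tested gene of the 8 members (red) and of the lists of partner, S-phase and histone genes (blue); black bars are medians. The medians are −0.25 for the shared cleavage factor, 0.19 for the Sm core and −0.45 for the histone genes, and no gene shown passed the threshold.

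The histone genes themselves, the targets of the 8 members, were tested for 47 of 63. Of these, 33 had a log2 fold change below 0 and 14 above, with a median of −0.45. With edgeR 0 were called. The unadjusted p was below 0.05 for 4 genes that were higher in T4A and 11 that were lower, or 8.51% and 23.4% of the list beside 7.45% and 8.02% of all tested genes. Taken against the WT mean, T4A replicate 1 had a median of −0.85 and T4A replicate 2 one of −0.13, so most of it came from T4A replicate 1. Only uniquely aligned reads were counted, which leaves the values of near-identical histone genes uncertain. Of the genes whose stem-loops are shown above, H1-2 had 78.0 and 80.9 CPM in WT and 44.1 and 55.7 CPM in T4A (log2 fold change −0.67, SE 0.12, edgeR quasi-likelihood test, adjusted p = 0.150), the lowest adjusted p of the list. H3C2 had 62.1 and 65.0 CPM in WT and 26.0 and 45.6 CPM in T4A (−0.83, SE 0.22). In both genes T4A lay below WT in each library, with T4A replicate 1 the lower. H4C8 had 75.9 and 73.6 CPM in WT and 107.2 and 86.4 CPM in T4A (0.37, SE 0.11). H2AC6 and H2BC11 had log2 fold changes of 0.11 (SE 0.09) and −0.11 (SE 0.10). The extremes of the list were H4C15 at 0.66 (SE 0.16) and H3C13 at −1.17 (SE 0.73), the latter with 1.79 CPM in T4A replicate 1 and 19.5 CPM in T4A replicate 2. H3C13 was −3.76 without T4A replicate 2 and −0.29 without T4A replicate 1. H4C15 was 0.82 without T4A replicate 1 and 0.46 without T4A replicate 2. Over the lists of partner, S-phase and histone genes together, DESeq2 called 3 of 139 genes, beside 64 calls among the 60708 gene rows given to it. The number of these rows with a DESeq2 result is not given here, so the shares cannot be compared. H1-2 and H2BC17 were lower and H4C15 higher in T4A.

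SLBP and NPAT were each set beside 12940 tested protein-coding genes with a mean count of at least 50 by the distance between their log2 CPM over the 4 libraries, each centred on its mean. The genes most like SLBP were RPL34, a ribosomal protein gene, at a distance of 0.0126, TARDBP, an RNA-binding protein gene, at 0.0164, and CLSPN, a gene of the replication checkpoint, at 0.0168. Within a distance of 0.1 of SLBP there were 455 of the 12940 genes. For NPAT they were GPATCH8 at 0.00977, MAP3K5 at 0.0138 and NLK at 0.0149, with 1148 genes within 0.1. With 4 libraries such likeness describes these libraries only.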

How the data were processed

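The measurements were 4 TT-seq libraries, 2 per group. Raw counts per gene were deposited by the authors, made with featureCounts from uniquely aligned reads over whole gene spans. The submitters' notes name cutadapt 4.6, STAR 2.7.11b, Picard, FastQC, deepTools 3.5.6 and GRCh38, while the strand setting and annotation version are not given in the sources used here. The notes on library preparation describe strand-specific cDNA. Samples were grouped by their titles. GENCODE v44 (lifted to GRCh37) served for symbols (58742 of 60708 rows), exonic lengths and transcripts, and coordinates are those of the count table. Counts were filtered with filterByExpr, scaled by TMM and tested in R 4.3.3 with edgeR 4.0.16 (glmQLFit, glmQLFTest; condition only, all 4 libraries, Benjamini-Hochberg over 23321 genes). DESeq2 1.42.0 was an alternative. A call required an adjusted p below 0.05 and a fold change above 1.5. Standard errors were derived from the F statistic. The code was tested on simulated data. Totals per library were 39249066, 45605027, 33853507 and 33188536.

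Alternatives were library size without TMM, RLE size factors, no filter, a minimum of 10 counts per library, a test of protein-coding genes alone, the replicate number as a block, no fold threshold, exonic length, and each library left out. Deviations of same-numbered libraries had a correlation near 0 (r = 0.0050 over 23321 genes), and the number was not taken as a pairing. This check cannot exclude a pairing, since the replicate differences of WT and T4A ran in opposite directions with G+C content. The named genes are the 8 members, every gene within 1000 bases back to back, the largest rise and fall of each list, POLR2A, the stem-loop gene with the most counts per histone class, and the 3 genes most like SLBP and NPAT. CHST8 and H2BC17 were named after their values were seen. The members and the lists were chosen with earlier results of these data known. No set test was run.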

Additional observations from a re-analysis of the deposited data

How the results depend on the processing

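With all libraries kept, the 8 genes gave 56 values under other settings, of which 53 kept direction and side of the threshold, the adjusted p being at lowest 0.143. The exceptions were MIF4GD at −0.021 without a filter, −0.018 with the replicate block and −0.0069 with DESeq2. The number of genes past the threshold was 1, and became 65 without a filter, 64 with DESeq2 and 433 with the replicate number as a block. Among the partner, S-phase and histone genes 0 of 122 passed, against 2 of 139 without a filter and 3 of 139 with DESeq2. Shares over all genes are not given for the fits without a filter and with DESeq2. With the replicate block 18 of 122 passed, beside 433 of 23321 tested genes, and 17 of the 18 were histone genes. The labels do not say that a replicate number marks a shared culture or batch, and the block changed no call among the 8 genes. The median of the 8 genes (−0.10) was −0.050 by library size, −0.12 without a filter, −0.091 with at least 10 counts, −0.066 over protein-coding genes and −0.11 with DESeq2. By library size, without a filter, over protein-coding genes and with DESeq2 the shared cleavage factor had −0.20, −0.32, −0.22 and −0.31, the Sm core 0.24, 0.15, 0.22 and 0.16, and the S-phase genes 0.080, −0.024, 0.063 and −0.012. U7 assembly was 0.031 by library size, and SLBP turnover −0.036 by library size and −0.055 over protein-coding genes. CSTF2 was 0.0040 by library size. Without a filter and with DESeq2, FIP1L1, SNRPD3 and FEN1, not tested in the main setting, also entered the medians. The cleavage factor list then held 7 genes, not 6, the Sm core 5, not 4, and the S-phase list 26, not 25. The cause of the other shifts was not tested. Per kb of exons the levels were 89.7 CPM for SLBP, 20.6 for NPAT, 10.9 for ZNF473, 8.44 for CASP8AP2, 5.73 for ERI1, 5.30 for LSM10, 3.94 for LSM11 and 0.772 for MIF4GD, so that ERI1 moved up in the order; per kb of span not shared with another gene, chosen after seeing the data, ZNF473 had 3.03.

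With 1 library left out, a group holds a lone library that is assumed to vary like the others. The genes past the threshold then ranged from 0 to 2500, with 195 without T4A replicate 1 and 2500 without T4A replicate 2, and those among the partner, S-phase and histone genes from 0 to 30. LSM10 ranged from −0.81 to −0.18, MIF4GD from −0.34 to 0.28, NPAT from −0.21 to −0.026, ERI1 from −0.21 to −0.0058 and LSM11 from 0.050 to 0.15. SLBP ranged from 0.12 to 0.23, CASP8AP2 from −0.28 to −0.20 and ZNF473 from −0.13 to −0.075. TACC3 ranged from −0.54 to 0.062, MIF4GD-DT from −0.78 to −0.16, CPSF1 from −0.97 to 0.12, GEMIN2 from −0.68 to −0.41, CCNF from −0.65 to −0.24, CDT1 from −2.26 to −0.12, H4C15 from 0.46 to 0.82 and H3C13 from −3.76 to −0.29. Medians ranged from −0.13 to −0.077 for the 8 genes, −0.29 to −0.095 for the cleavage factor, −0.19 to −0.0034 for cap binding and pausing, −0.044 to 0.063 for histone gene activation, −0.031 to 0.043 for S-phase genes and −0.95 to −0.12 for histone genes. The filter was applied anew, so the cleavage factor median was over 6 or 7 genes and that of histone genes over 47 to 49. LSM10 and MIF4GD had at most 423 counts in a library, the fewest of the 8 genes.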
